A study of Arabidopsis thaliana with 16 samples.

Results

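Transcript levels of the embryo proper were set against those of the micropylar endosperm, the endosperm that surrounds the embryo, in Arabidopsis seeds at the heart stage. The comparison rests on 4 arrays of the 16 in the series, chosen by their titles: 2 of the embryo proper and 2 of the micropylar endosperm. All plants were of the Ws-0 genotype, grown under continuous light, and no treatment or mutation separates the groups. Siliques of 1.2 to 1.5 cm from plants 38 to 46 days old were fixed and embedded in paraffin, and each region was cut from sections by laser capture microdissection, in which a laser under the microscope frees chosen areas of tissue. The seeds held embryos 52 to 85 micrometres long. RNA of each sample, 5 to 6 ng, was amplified before biotin labelling, and 1 Affymetrix ATH1 array was hybridised per sample. The other 12 arrays, of peripheral endosperm, chalazal endosperm, chalazal seed coat, seed coat and whole seeds, entered the fit for its estimate of spread and are given below as levels. The sources used here do not give the number of sections or plants per captured sample, and a section may carry cells of a neighbouring region.

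In Arabidopsis a double fertilisation gives rise to the embryo and to the endosperm, a nutritive tissue that nourishes the embryo and is later consumed by it. At the heart stage the embryo proper forms its cotyledons, epidermis, vascular tissue and meristems, while the micropylar endosperm, the part next to it, is becoming cellular. Sugars and other solutes reach the embryo across the endosperm, and secreted enzymes, peptides and wall proteins are known to act at the surface between both tissues.

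Each array gave a linear signal for each of 22746 Arabidopsis probe sets, and 19475 of them were bright enough to be tested. The array medians were 135 and 136 for the embryo proper, and 105 and 138 for the micropylar endosperm. A background bound, the 95th percentile of 27 bacterial control probe sets, was 33.5 and 31.1 on the embryo arrays and 48.2 and 67.8 on the micropylar arrays. Between 62.6% and 71.1% of Arabidopsis probe sets lay above the bound on these 4 arrays. The ratio of 3′ to 5′ signal of the GAPDH control, which grows as RNA is shorter or amplified from its end, was 9.66 and 3.56 for the embryo and 18.9 and 11.7 for the micropylar endosperm. That of ubiquitin was 10.4 and 9.44 against 9.82 and 8.57, and that of actin 40.8 and 12.4 against 9.24 and 28.9, so that these controls did not separate the tissues in the same way. Their part in the differences below was not tested.

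The embryo replicates were more alike than the micropylar replicates. Across probe sets, which are no independent replicates, the log2 values of both embryo arrays had a Pearson r of 0.955 and a median absolute difference of 0.393. Both micropylar arrays had an r of 0.889 and a median absolute difference of 0.612. Micropylar replicate 2 stood closer to the peripheral endosperm (r of 0.901 and 0.894 with its replicates) than to micropylar replicate 1. The 4 correlations between an embryo and a micropylar array ran from 0.855 to 0.865. Results are therefore also given without each array.

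The labels were checked against marker genes of each tissue. Of 14 embryo markers 4 were named and tested, LHW, CR4 (the epidermal receptor kinase ACR4), PHV and BBM, and their summed signal was 4574 and 4720 in the embryo against 2084 and 566 in the micropylar endosperm. The higher micropylar sum came from LHW, a factor of vascular development, which read 1527 on micropylar replicate 1 and 218 on replicate 2, against 1475 and 1891 in the embryo. The embryo marker sum was 527 and 198 in the peripheral endosperm and 2303, 3199 and 3706 in the chalazal seed coat. These embryo markers are thus not particular to the embryo. Of 16 endosperm markers, AGL80, AGL62 and SHB1 were named and tested. Their summed signal was 99.9 and 157 in the embryo and 194 and 273 in the micropylar endosperm, and 2 of the 3 lay at or under background on each embryo array and 1 on each micropylar array. In the chalazal seed coat the sum was 260, 282 and 92.5. None of the 3 endosperm markers passed the test. The label of the micropylar endosperm thus has little check from endosperm markers on this array. No suspensor marker was named and tested, so suspensor tissue, which is attached to the embryo at the micropylar end, could not be looked for. The sum of 4 seed coat markers (DFR, DELTA-VPE, ARA12 and BAN) was 892 and 1450 in the embryo and 3042 and 3205 in the micropylar endosperm. It was 7004 and 3012 in the peripheral endosperm, and 75776 and 68889 in the seed coat itself.

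More transcripts stood out in the micropylar endosperm than in the embryo. Of the 19475 probe sets tested, 541 (2.78%) passed the test, 123 (0.632%) higher in the embryo proper and 418 (2.15%) higher in the micropylar endosperm. The test was that of limma on log2(signal + 30.2), with each array centred on its median, 2 arrays a group and an adjusted p below 0.05. Differences are embryo minus micropylar endosperm, with the SE of the model, and the offset of 30.2 makes the change of dim genes smaller. At an unadjusted p below 0.05 there were 2617 probe sets (13.4%). The median difference among those called was 2.76 on the log2 scale in either direction, with a range of 2.1 to 4.65 for the embryo side and 1.51 to 4.56 for the micropylar side. The arrays of the groups did not overlap for any of the 541, as was also so for 51.0% of all tested probe sets. The median of all probe sets was -0.18 after centring and 0.01 without it, and without centring 166 were higher in the embryo and 308 in the micropylar endosperm, so that 35% of calls were on the embryo side in place of 22.7%. In bulk tissue, a lower level from fewer cells of a type and one from less RNA per cell cannot be told apart.

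**Figure D1:**
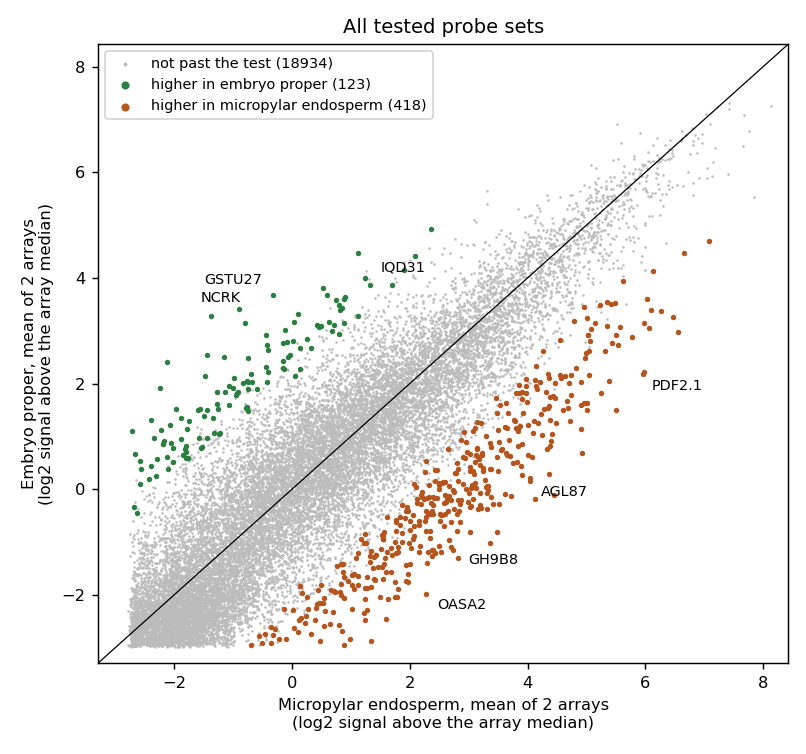
Mean level of each tested probe set in the micropylar endosperm (x axis) and in the embryo proper (y axis), as log2 signal above the array median, 2 arrays each. The 123 probe sets higher in the embryo proper (green) and the 418 higher in the micropylar endosperm (orange) lie apart from the diagonal of equal level. The band of grey points along the diagonal holds the 18934 that did not pass the test.

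The calls depended on each of the 4 arrays. Left without embryo replicate 1, the test called 6 probe sets higher in the embryo and 58 higher in the micropylar endosperm, and without embryo replicate 2 it called 10 and 114. Without micropylar replicate 1 the counts were 67 and 195, and without micropylar replicate 2 they were 49 and 213. Of the original calls, 3 on the embryo side and 31 on the micropylar side passed in all 4 of these fits. Of the 83 genes past the test that are among the largest differences, in a list or family, or carry a symbol, not all of which are given below, 33 passed in none of the 4 fits and 6 in all: NCRK, AT1G29270, bZIP44, AGL87, AT3G26590 and DELTA-VPE. Both chalazal groups in the fit lowered the counts, since 416 and 919 probe sets were called when those groups were left out, all 123 and all 418 among them.

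Only some of the called probe sets could be put to a named gene. On the embryo side 63 name 1 gene and 57 carry no name in the annotation used here, and on the micropylar side 230 name 1 gene and 176 carry none. Most of the named genes have a locus name alone, and 19 and 45 have a symbol. In 38 of the 123, both micropylar arrays were at or under background, and in 33 of the 418 both embryo arrays were. For such genes a fold is given as "at least", computed against the background bound. The symbol-bearing genes SGP1, NUB, HYH, ATBRXL2, AGO7, APK1A and PID2 on the embryo side, and on the micropylar side bZIP44, RALFL18, TMT1, ALN, AAH, SHT, AMY1, B120, EMS1, ACT11, DPL1, AER, NQR, MGL, GTR1, UBC30, TIL, ALDH7B4 and the tetraspanin, glutathione S-transferase and beta-glucosidase genes other than TET11 and GSTU27, were picked after their values were seen.

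Receptor and other kinases were among the genes higher in the embryo. NCRK, a receptor-like kinase of the cell membrane, read 2529 and 2190 in the embryo and 2.23 and 182 in the micropylar endosperm. It had the largest difference on this side, 4.65 ± 0.79 on the log2 scale (limma, adjusted p = 0.00146), and passed in all 4 fits that left out 1 array. The micropylar replicates differ widely here, and both lie far below the embryo. ROXY1, a glutaredoxin that sets petal number, read 957 and 1941 against 70.0 and 63.7, a difference of 3.65 ± 0.70 (adjusted p = 0.00341). CR4, the receptor-like kinase ACR4 of the embryo's outer cell layer, read 1254 and 1485 against 247 and 120, and rose by 2.58 ± 0.71 (adjusted p = 0.0462). For both genes every embryo array exceeded every micropylar array, as for all 123 probe sets called on this side. The kinase gene APK1A read 2606 and 2500 against 331 and 370 (2.57 ± 0.60, adjusted p = 0.0137). PID2, a relative of the auxin-transport kinase PINOID, was dim, at 118 and 191 in the embryo and at background in the micropylar endosperm (at least 1.8-fold, adjusted p = 0.0424).

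A further 4 of the genes higher in the embryo are known from the shaping of lateral organs. NUB (NUBBIN), a zinc finger factor of leaf and floral organ growth, read 1572 and 1792 in the embryo and 244 and 121 in the micropylar endosperm (2.88 ± 0.66, limma adjusted p = 0.012). YAB5, a YABBY factor of the abaxial side of lateral organs, read 486 and 419 against 28.3 and 58.8. Both micropylar values are at or under background, so the embryo was at least 4.8-fold higher (adjusted p = 0.0394). AGO7, the Argonaute protein that takes part in making small RNAs against auxin response factors and so keeps abaxial fate in bounds, read 365 and 407 against 11.2 and 59.2, at least 4.1-fold higher (adjusted p = 0.04). PTL (PETAL LOSS), a trihelix factor that restrains growth between organs, read 569 and 302 against 25.8 and 9.60, at least 4.4-fold higher (adjusted p = 0.025). In each of these 4 genes the embryo arrays lay above both micropylar arrays, as for all 123 probe sets called on this side. After quantile normalisation CR4, YAB5 and AGO7 no longer passed, and of the genes in this paragraph NUB alone passed in any fit without 1 array, that without micropylar replicate 1.

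Of the 57 members of the embryo patterning and meristem list only 8 were named and tested, and 1 passed, YAB5. The median difference of the 8 was 1.45, against -0.18 for all probe sets. Above 0 lay 6 of the 8, and 8042 of all 19475 tested probe sets. PHV, a homeodomain factor of adaxial fate and the meristem, read 1396 and 946 against 207 and 146, and did not pass (2.34 ± 0.67, limma adjusted p = 0.0581). BBM, a factor that promotes embryo identity, read 449 and 398 against 103 and 81.5 (1.7 ± 0.70, adjusted p = 0.246). In both genes the arrays of the groups did not overlap, as was so for 51.0% of all tested probe sets. The list's median was 2.1 without micropylar replicate 1 and 0.45 without micropylar replicate 2, and LHW and YAB3 were each brighter on micropylar replicate 1 than in at least 1 embryo array. YAB3 read 69.1 and 52.6 in the embryo and 238 and 15.7 in the micropylar endosperm. In the list of epidermis and embryo sheath genes, 3 of 40 members were named and tested: CR4 passed, and GSO1, a receptor of the embryo cuticle, read 1338 and 1095 against 390 and 119 (2.12 ± 0.71, adjusted p = 0.119).

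The IQD family, calmodulin-binding proteins that attach to microtubules and the cell membrane, had 2 of its 14 tested members past the test, both higher in the embryo. Of all tested probe sets 0.632% were called on that side. The median difference was 1.1, and 10 of the 14 lay above 0, as did 8042 of all 19475 tested probe sets. IQD31 read 3869 and 3236 in the embryo and 475 and 549 in the micropylar endosperm, a difference of 2.53 ± 0.60 (limma, adjusted p = 0.0157). IQD22 read 172 and 155 against 2.96 and 3.55, which is at least 1.9-fold higher (adjusted p = 0.0385). Of these 2 members, IQD31 had close replicates in each tissue, while both micropylar values of IQD22 lay under background. Beside them, iqd15 (2.54 ± 0.74, adjusted p = 0.0628), IQD18 (2.47 ± 0.74, adjusted p = 0.0689) and iqd32 (2.11 ± 0.73, adjusted p = 0.142) had differences of like size and did not pass. IQD18 read 127 on micropylar replicate 1 and 5.95 on replicate 2. Neither IQD31 nor IQD22 passed in any fit without 1 array.

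Single genes of wall and conjugation families were also higher in the embryo. GSTU27, a tau-class glutathione S-transferase, read 3682 and 2633 against 68.2 and 271 (4.0 ± 0.79, limma adjusted p = 0.00421). EXPA15, an expansin that loosens cell walls, read 1707 and 3476 against 221 and 182 (3.23 ± 0.87, adjusted p = 0.0393). TBL36, of a family whose members acetylate wall polysaccharides, read 677 and 375 against 3.93 and 32.0, at least 5.3-fold higher (adjusted p = 0.00294). All 3 genes had embryo arrays above the micropylar ones, as in every call on this side, and for TBL36 the micropylar signal was within background. UGT76C2, which adds glucose to cytokinins, read 1364 and 696 against 134 and 69.3 (2.78 ± 0.77, adjusted p = 0.0456). Among the 16 tested expansins EXPA15 was the only one past the test, and the family's median was -0.49. Of 23 TBL genes, a group drawn up after values were seen, TBL36 alone passed. The calls of EXPA15 and UGT76C2 ended without the filter on dim probe sets and in a robust fit without trend.

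Embryo genes without a symbol had differences of like size. AT1G29270 read 1949 and 828 in the embryo and 34.7 and 7.33 in the micropylar endosperm, at least 13.0-fold higher (limma, adjusted p = 0.00094), and passed in all 4 fits without 1 array. AT3G15720 read 5963 and 4961 against 402 and 473 (3.36 ± 0.69, adjusted p = 0.00594). Its signal was well above background in the micropylar endosperm, while both peripheral arrays, at 5.68 and 33.9, lay under it. The peripheral endosperm was thus at least 4.66-fold lower than the micropylar (adjusted p = 0.0129). GSTU27 and EXPA15 also had micropylar levels above their peripheral means of 3.89 and 16.4, but that difference did not pass the test (adjusted p = 0.23 and 0.333). LHW, the marker that was bright on micropylar replicate 1, was also lower in the peripheral endosperm, with 1 of its 2 arrays under background (peripheral minus micropylar -3.14, no exact size, adjusted p = 0.0328). Whether embryo RNA in the micropylar samples has a part in these levels was not tested.

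HYH had its highest mean in the peripheral endosperm. This relative of HY5, a factor of light-regulated growth, read 1478 and 467 in the embryo and 46.7 and 134 in the micropylar endosperm (2.75 ± 0.76, limma adjusted p = 0.0449). The peripheral mean was 1352, and the peripheral level exceeded the micropylar by 3.6 (adjusted p = 0.0127). The call against the embryo ended under quantile normalisation, with the 4 arrays alone, without the filter on dim probe sets, with an offset of 1 and with a robust fit without trend.

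**Figure D2:**
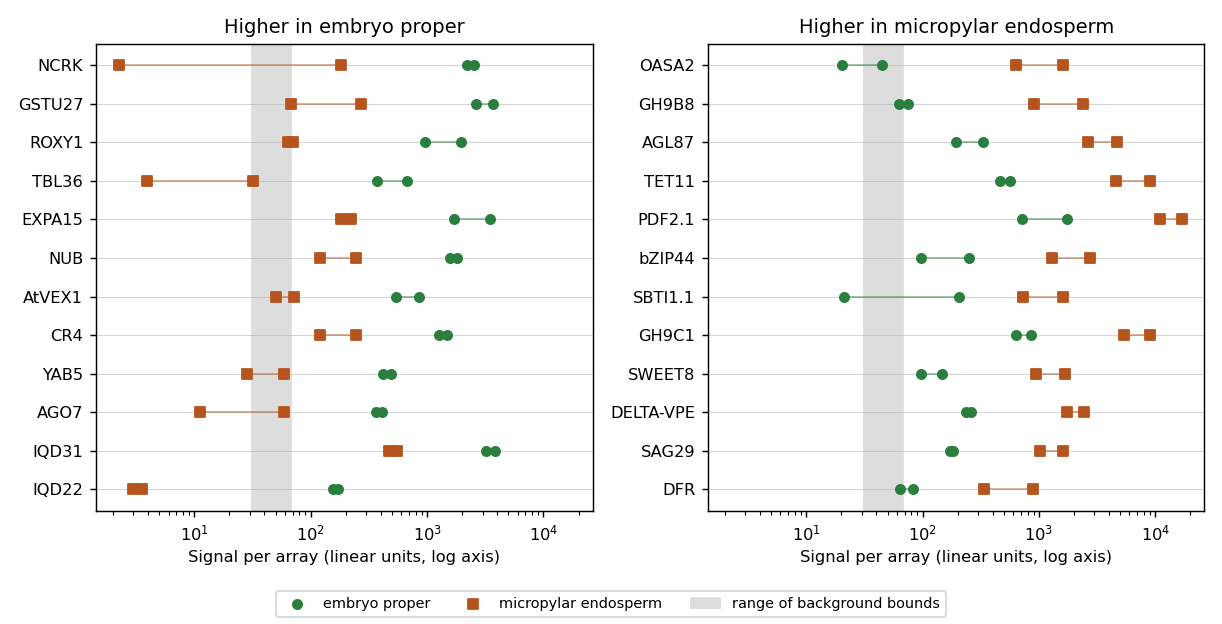
Signal on each of the 4 arrays (x axis, linear units on a log axis) for 12 genes higher in the embryo proper (left) and 12 higher in the micropylar endosperm (right). Green circles are embryo arrays, orange squares micropylar arrays, a line joins the 2 replicates and the grey band spans the background bounds of 31.1 to 67.8. NCRK has micropylar replicates of 2.23 and 182, while those of IQD31 lie close together at 475 and 549.

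Of 13 tested endoglucanase genes of glycosyl hydrolase family 9, 3 were higher in the micropylar endosperm. Of all 19475 tested probe sets 2.15% were called on that side. GH9B8, an enzyme that cuts glucan chains of the wall, read 75.0 and 63.1 in the embryo and 2405 and 909 in the micropylar endosperm, so it was lower in the embryo by 4.12 (difference -4.12 ± 0.72, limma adjusted p = 0.00184). GH9C1, of the same family, read 849 and 635 against 8946 and 5348 (-3.38 ± 0.64, adjusted p = 0.00325). GH9A3 read 307 and 255 against 811 and 1232 (-1.93 ± 0.54, adjusted p = 0.048), and this call ended without centring and after quantile normalisation. The other 10 did not pass, and the family's median was -0.88, against -0.18 for all tested probe sets. GH9B13 lay the other way, with 728 and 920 in the embryo against 105 and 121 (2.38 ± 0.68, adjusted p = 0.0549). GH9B8 and GH9C1 had their highest means in the micropylar endosperm, whereas GH9A3 was highest in the seed coat at 2462. In the cell wall list 2 of 16 tested genes passed, GH9C1 on the micropylar side and EXPA15 on the embryo side, and the median of -0.25 was near that of all probe sets.

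Protease genes past the test lay on the micropylar side. Of the 9 tested members of the protease and developmental cell death list, 3 passed, all higher in the micropylar endosperm. Of all tested probe sets 2.15% were called on that side. The list's median was -1.17, against -0.18 for all tested probe sets, and 3 of the 9 lay above 0. SBTI1.1, a subtilisin-like protease, read 207 and 21.1 in the embryo and 1607 and 730 in the micropylar endosperm (-3.53 ± 0.70, limma adjusted p = 0.00431). The serine carboxypeptidase-like gene scpl48 read 1924 and 1150 against 9490 and 7687 (-2.69 ± 0.65, adjusted p = 0.0186). DELTA-VPE, a vacuolar processing enzyme that acts in the death of inner seed coat cells, read 259 and 235 against 2436 and 1758 (-3.11 ± 0.54, adjusted p = 0.00172). It passed in all 4 fits without 1 array. Its mean in the seed coat was 22442, and the sum of seed coat markers was higher in the micropylar endosperm than in the embryo, as given above. The part of seed coat RNA in this difference was not tested. The other carboxypeptidase gene past the test, scpl20, read 783 and 604 against 4634 and 4105 (-2.81 ± 0.60, adjusted p = 0.00719), and it too was highest in the seed coat. Of the 23 genes of that family the median was 0.20.

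DFR, the dihydroflavonol reductase of the flavonoid pathway and a seed coat marker, was also higher in the micropylar endosperm. It read 83.5 and 64.2 in the embryo and 340 and 882 in the micropylar endosperm (-2.68 ± 0.55, limma adjusted p = 0.00535). The peripheral mean was 2669 and the seed coat mean 25508. BAN, a later enzyme of the same pathway, read 16.5 and 30.3 against 5.40 and 166, and ARA12, a subtilase of seed coat mucilage, read 534 and 1120 against 261 and 399. Neither passed (adjusted p = 0.664 and 0.641), and the ARA12 arrays lay higher in the embryo. Of the 4 tested genes of the seed coat flavonoid and mucilage list DFR alone passed, and the list's median was -0.65.

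Among genes of small secreted peptides, PDF2.1 and RALFL18 were higher in the micropylar endosperm. PDF2.1, a defensin, read 1749 and 713 in the embryo and 16922 and 10908 in the micropylar endosperm (-3.76 ± 0.66, limma adjusted p = 0.00195). RALFL18, a member of the RALF peptide family that signals through membrane receptor kinases, read 3.19 and 71.4 against 271 and 821 (-3.31 ± 0.72, adjusted p = 0.00813). Of the 12 tested genes of the cysteine-rich and small peptide list PDF2.1 alone passed, and the median was -0.64. The defensin-like gene LCR69 read 16118 and 7977 against 51445 and 47642 and did not pass (-2.31 ± 0.69, adjusted p = 0.0673). Its arrays did not overlap between tissues, as was so for 51.0% of all tested probe sets.

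Tetraspanins, membrane proteins that organise receptor domains, were grouped after values were seen. Of 13 tested members 3 passed, all higher in the micropylar endosperm, where 2.15% of all tested probe sets were called. TET11 read 467 and 562 against 4577 and 9034 (-3.77 ± 0.81, limma adjusted p = 0.00763). TET4 and TET7 differed by -2.76 ± 0.72 (adjusted p = 0.031) and -2.61 ± 0.66 (adjusted p = 0.0257). The family's median was -0.90, and -0.40 without micropylar replicate 1. TET15 lay the other way, at 4775 and 3068 in the embryo against 900 and 247, and just missed the threshold (2.73 ± 0.77, adjusted p = 0.0506). TET4 was highest in the chalazal endosperm (16310), and its call ended without centring. After quantile normalisation neither TET4 nor TET7 passed.

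Sugar transporters of the SWEET family, which move sugars across membranes down their gradient, were found on both sides. SWEET8 read 97.7 and 148 in the embryo and 937 and 1682 in the micropylar endosperm (-3.28 ± 0.58, limma adjusted p = 0.00204). SAG29, which is SWEET15 and is known to carry sucrose to the embryo, read 174 and 183 against 1600 and 1030 (-2.85 ± 0.71, adjusted p = 0.023). AtVEX1, which is SWEET5, went the other way, with 852 and 535 in the embryo against 49.9 and 71.3 (2.78 ± 0.66, adjusted p = 0.0174). In each of the 3 genes the arrays did not overlap, as was so for all 541 probe sets called. SWEET9, the nectary sucrose transporter, read 1277 and 2123 against 99.5 and 375 and did not pass (2.68 ± 0.80, adjusted p = 0.0688). TMT1, a sugar carrier of the vacuolar membrane, read 110 and 114 against 973 and 1172 (-3.14 ± 0.65, adjusted p = 0.00611). In the transport list 1 of 11 tested genes was higher in the embryo and 2 were lower, with a median of -0.37. The SAG29 call ended after quantile normalisation, and neither SAG29 nor AtVEX1 passed in any fit without 1 array.

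Among 32 tested AGAMOUS-like genes, with a median of -0.92, only the MADS-box gene AGL87 passed, higher in the micropylar endosperm. It read 331 and 195 in the embryo and 4670 and 2627 in the micropylar endosperm (-3.82 ± 0.56, limma adjusted p = 0.000441). It passed in all 4 fits without 1 array, and its means in the peripheral and chalazal endosperm were 6561 and 4713. Of all tested probe sets 2.15% were called on the micropylar side. Among 13 tested endosperm regulators limma called none. At an unadjusted p below 0.05 were 1 of the 13 and 13.4% of all tested probe sets. All 13 lay below 0 with a median of -0.98, while 11433 of all 19475 tested probe sets lay below 0. AGL62, which holds back endosperm cellularisation, read 1.67 and 21.7 against 51.9 and 85.0 (-1.45 ± 0.75, adjusted p = 0.409). Most of these regulators are dim, and their median varied with the offset, from -2.73 with an offset of 1 to -0.57 with an offset of 100.

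Several enzyme genes had large differences on the micropylar side. OASA2, a gene of the cysteine synthase family, read 45.1 and 20.4 in the embryo and 1614 and 634 in the micropylar endosperm (-4.27 ± 0.81, limma adjusted p = 0.00327). It had the largest difference of the genes named here on this side. UGT84B1, which adds glucose to auxin, read 61.7 and 94.1 against 1117 and 1135 (-3.63 ± 0.62, adjusted p = 0.00168). The arrays of both genes were far apart between tissues. Genes of allantoin breakdown, which frees nitrogen from purines, included 2 past the test. ALN, the allantoinase, differed by -2.71 ± 0.50 (164 and 236 against 1122 and 1452, adjusted p = 0.00299), and AAH, the allantoate amidohydrolase that follows it, by -2.83 ± 0.65 (170 and 89.0 against 944 and 919, adjusted p = 0.0122). UGLYAH, a later enzyme of the pathway, did not pass (0.22, adjusted p = 0.943). SHT, which joins spermidine to hydroxycinnamic acids, read 171 and 264 against 1903 and 2420 (-3.35 ± 0.64, adjusted p = 0.00336). AMY1, an alpha-amylase, read 157 and 138 against 1763 and 821 (-2.99 ± 0.74, adjusted p = 0.0223), and was highest in the chalazal endosperm (9348).

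The UDP-glycosyltransferase and tau-class glutathione S-transferase families had calls on both sides. The 2 calls among 18 beta-glucosidases and the 1 call among 15 cytochrome P450 genes, most of them CYP71B, lay on the micropylar side. In each of these families 1 gene on the embryo side had an unadjusted limma p below 0.05. Of all tested probe sets 0.632% were called on the embryo side and 2.15% on the micropylar side. Of 42 tested UDP-glycosyltransferase genes UGT76C2 was higher in the embryo and UGT84B1 and UGT76E2 in the micropylar endosperm, with a median of -0.52. UGT76E2 read 797 and 708 against 4795 and 6229 (-3.01 ± 0.70, limma adjusted p = 0.0141). Among 9 tau-class glutathione S-transferases, grouped after values were seen, GSTU27 was higher in the embryo, while GSTU18 (163 and 215 against 2154 and 1493; -3.26 ± 0.68, adjusted p = 0.00611) and GSTU26 (-3.01 ± 0.67, adjusted p = 0.0106) were higher in the micropylar endosperm. The beta-glucosidases BGLU44 (-2.67 ± 0.56, adjusted p = 0.00611) and BGLU29 (-2.65 ± 0.73, adjusted p = 0.0462) passed out of 18, and both were highest in the seed coat. CYP71B34, a cytochrome P450, was the only 1 of 15 past the test (23.0 and 131 against 1060 and 993; -3.70 ± 0.67, adjusted p = 0.00252).

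Transcripts of photosynthesis lay below 0 in most cases and rarely passed. Of 11 nuclear photosynthesis genes 1 passed, PRK, the phosphoribulokinase of carbon fixation, with 4108 and 1964 in the embryo against 8868 and 8725 (-1.81 ± 0.46, limma adjusted p = 0.0282). The call ended without centring and after quantile normalisation, and the gene was highest in the peripheral endosperm (17983). The median of the 11 was -1.22, and 5 of them had an unadjusted limma p below 0.05. Of 43 plastid-encoded photosynthesis genes limma called none, 13 had an unadjusted p below 0.05, 40 lay below 0, and the median was -0.92 (-0.42 without micropylar replicate 1 and -1.31 without replicate 2). Of all 19475 tested probe sets 13.4% had an unadjusted p below 0.05 in limma, and 11433 lay below 0. The plastid-encoded genes share 1 plastid genome and are often transcribed together. The plastid gene psbA read 9327 and 8747 against 15886 and 16833 (-1.05 ± 0.41, adjusted p = 0.206).

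Other pathways fixed as lists showed no gene past the test. None of 13 auxin genes passed in limma, with a median of 0.57. At an unadjusted p below 0.05 in limma were 2 of the 13 and 13.4% of all tested probe sets. Of these IAA30, an auxin-response repressor, came nearest (341 and 602 against 80.8 and 43.5; 2.23 ± 0.66, limma adjusted p = 0.0661). The 2 tested cytokinin genes, the response regulators ARR15 and RR16, had higher signals in the micropylar endosperm on every array. Their unadjusted p in limma was below 0.05, without passing after adjustment. Of all tested probe sets, 51.0% had no overlap of arrays. ARR15 read 82.2 and 68.8 against 577 and 216 (-2.07 ± 0.65, adjusted p = 0.0906), and RR16 read 72.6 and 38.7 against 220 and 188 (-1.67 ± 0.64, adjusted p = 0.202). None of 9 genes of mitosis and cytokinesis passed, before or after adjustment, with a median of -0.14, near that of all probe sets. No call was made among 3 gibberellin, 3 maturation and oil and 2 replication genes, of which 1 maturation gene had an unadjusted limma p below 0.05. SE and DME, the 2 tested genes of the list of DNA methylation, small RNA and chromatin, did not pass either. These lists cover few of their members, so that no count over them describes the pathway.

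**Figure D3:**
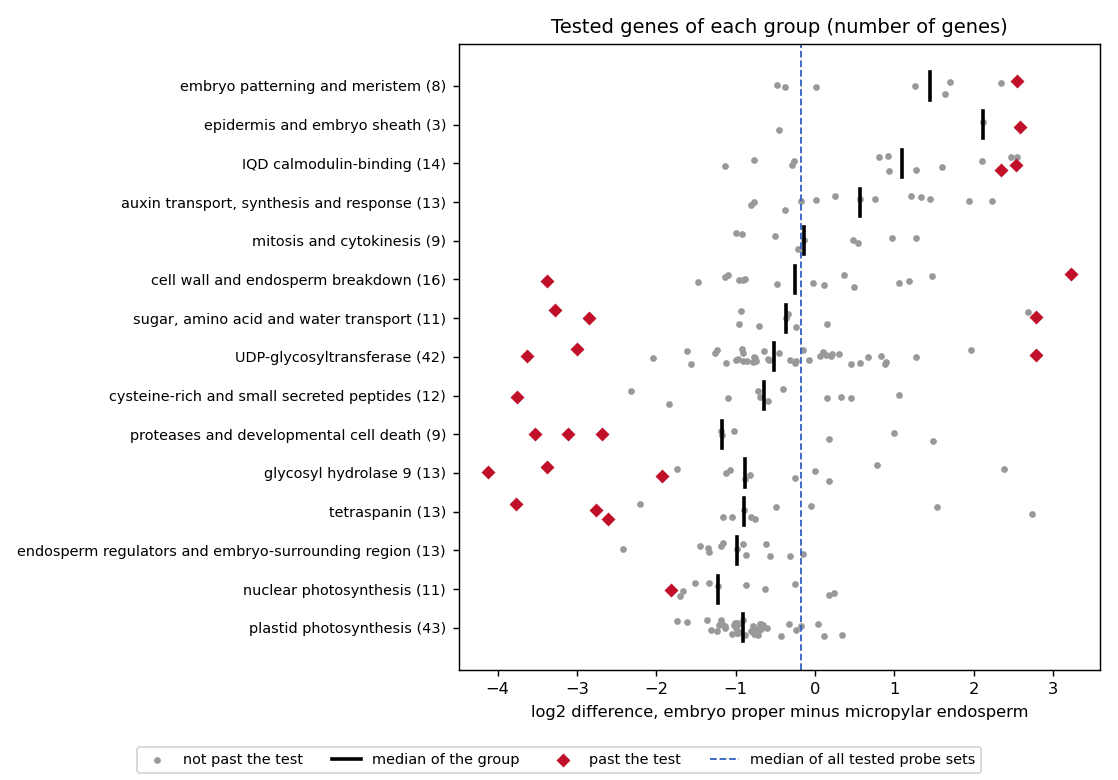
log2 difference (x axis, embryo proper minus micropylar endosperm) of each tested gene in 15 gene groups (y axis, number of genes in brackets). Red diamonds passed the test, grey points did not, black bars are group medians, and the dashed line is the median of all tested probe sets at -0.18. The medians run from 2.12 for the 3 epidermis genes to -1.22 for nuclear photosynthesis.

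A bZIP factor and receptor kinases were among the micropylar genes. The bZIP factor gene bZIP44 read 96.2 and 250 in the embryo and 2740 and 1301 in the micropylar endosperm (-3.54 ± 0.54, limma adjusted p = 0.000734). It passed in all 4 fits without 1 array, and its mean was highest in the chalazal seed coat (26378). B120, a lectin receptor kinase, read 12.4 and 103 against 241 and 1159 (-3.11 ± 0.74, adjusted p = 0.0174). EMS1, the receptor kinase that specifies the anther tapetum, had a smaller difference, with 684 and 456 against 1310 and 2967 (-1.96 ± 0.55, adjusted p = 0.0496). Its call ended without centring. ACT11, an actin of reproductive tissue, read 433 and 293 against 2716 and 2614 (-2.99 ± 0.73, adjusted p = 0.0202). B120, ACT11 and EMS1 had no overlap between tissues, as was so for all 418 probe sets called on this side.

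The remaining symbol-bearing genes span several pathways. DPL1, a lyase of sphingolipid breakdown, read 131 and 225 against 940 and 2487 (-3.14 ± 0.54, limma adjusted p = 0.00172). AER, an alkenal reductase that detoxifies reactive aldehydes, read 903 and 681 against 3169 and 7036 (-2.74 ± 0.64, adjusted p = 0.0152). NQR, a quinone reductase gene, read 124 and 236 against 987 and 916 (-2.47 ± 0.56, adjusted p = 0.0113). In these genes too the embryo arrays lay below both micropylar arrays, as for all 418 probe sets called on this side. MGL, which breaks down methionine, differed by -2.47 ± 0.63 (adjusted p = 0.0279), and GTR1, a glucosinolate transporter, by -2.46 ± 0.67 (adjusted p = 0.0437). UBC30, a ubiquitin-conjugating enzyme, read 620 and 1140 against 2304 and 3888 (-1.99 ± 0.43, adjusted p = 0.00883) and had a mean of 30793 in the chalazal endosperm. TIL, a stress-related lipocalin, and ALDH7B4, an aldehyde dehydrogenase, had the smaller differences of -1.81 ± 0.47 and -1.61 ± 0.41 (adjusted p = 0.03 and 0.0288). The calls of MGL, GTR1, TIL and ALDH7B4 ended without centring. On the embryo side ATBRXL2, a gene related to BREVIS RADIX, read 587 and 605 against 47.3 and 61.7, at least 6.3-fold higher (adjusted p = 0.0278).

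Micropylar genes without a symbol included some of the largest differences. AT4G04460 read 502 and 267 in the embryo and 13418 and 3134 in the micropylar endosperm (-4.23 ± 0.72, limma adjusted p = 0.00149). AT1G04645 read 881 and 1340 against 12533 and 14337 (-3.78 ± 0.64, adjusted p = 0.00146), and AT2G38870 read 736 and 603 against 14444 and 6601 (-4.0 ± 0.77, adjusted p = 0.00354). All 3 were highest in the micropylar endosperm of the 6 compartments. AT3G26590 was at background in the embryo and read 544 and 493 in the micropylar endosperm, at least 10-fold lower in the embryo (adjusted p = 0.000441), and passed in all 4 fits without 1 array. A second probe set of the same gene showed no such difference (0.04 ± 0.70, adjusted p = 0.99), so the gene's call rests on 1 of its 2 probe sets. AT3G03410, at least 11.9-fold lower in the embryo (adjusted p = 0.00172), read 332 and 1141 in the micropylar endosperm and had a mean of 102432 in the chalazal endosperm.

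The levels in the other compartments separated the genes further. Of the 123 probe sets higher in the embryo, 84 (68.3%) had their highest mean there among the 6 compartments, and 22 had it in the chalazal seed coat, as against 12.8% and 14.5% of all tested probe sets. Of the 418 higher in the micropylar endosperm, 175 (41.9%) were highest in it and 129 (30.9%) in the chalazal endosperm, as against 10% and 33.5% of all tested. A probe set lower in 1 of both tissues could not be highest in it, so that part of these shares is set by the choice. NUB, EXPA15, GSTU27 and IQD31 were brightest in the embryo proper. SGP1, on the embryo side (338 and 249 against background, at least 3.2-fold, limma adjusted p = 0.0111), had a mean of 1800 in the chalazal seed coat.

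Some of the micropylar genes were also higher in the micropylar than in the peripheral endosperm, and others were not. The test was peripheral minus micropylar endosperm in the same model, in which 197 of 19475 probe sets (1.01%) passed, 159 (0.816%) lower and 38 (0.195%) higher in the peripheral endosperm. Both comparisons share the micropylar arrays. TET11 had a peripheral mean of 546 and differed by -4.04 (limma, adjusted p = 0.00967), and SAG29 had 97.7 and differed by -3.37 (adjusted p = 0.0127). SBTI1.1 read 74.2 and 40.9 in the peripheral endosperm, the second value under background, so its difference of -3.71 (adjusted p = 0.00574) is no exact size. AMY1, at 53.3 and 39.9, was under background on both peripheral arrays and at least 12.3-fold lower there than in the micropylar endosperm (adjusted p = 0.00421). AGL87 (0.88, adjusted p = 0.788), SWEET8 (-0.28, adjusted p = 0.974), ALN (-0.13, adjusted p = 0.996) and GH9B8 (-1.13, adjusted p = 0.789) did not pass that test, with peripheral means of 6561, 1039, 1177 and 665. PDF2.1, with a peripheral mean of 2421, lay between (-2.50, adjusted p = 0.0672). Without micropylar replicate 1 the 159 became 34, and without peripheral replicate 2 they became 18.

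**Figure D4:**
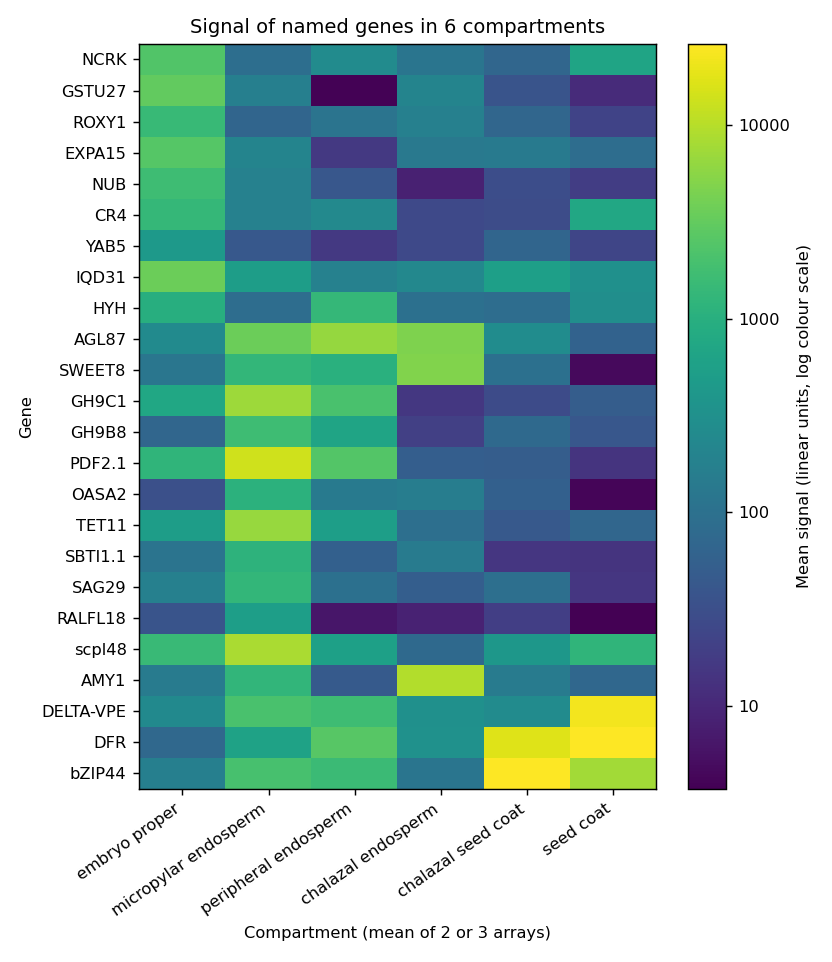
Mean signal (colour, linear units on a log scale) of 24 named genes (rows) in 6 seed compartments (columns), each the mean of 2 or 3 arrays. Levels compare along a row, not between rows. The micropylar column stands out along the rows of TET11, SBTI1.1 and RALFL18, while AGL87 is as bright in the peripheral endosperm (6561) and DELTA-VPE and DFR are brightest in the seed coat (22442 and 25508).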

How the data were processed

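The authors deposited 1 linear signal intensity per probe set and array, computed with GCOS, Affymetrix's array software, per the submitters' processing notes. The sources used here give neither its version nor its settings. On each of the 4 arrays the mean without the lowest and highest 2% was about 500.05, as after a scaling to a common target. Detection calls and raw scans were not analysed here, and the background bound stands in for them. The table holds 22810 probe sets, 64 of them controls. In the platform annotation, 13513 of the 22746 Arabidopsis probe sets have 1 gene, 503 several and 8730 none, and 13436 matched a locus of the RefSeq TAIR10.1 gene table, used for names only. Without a stated genome build for the array, coordinates are left out.

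From these values, log2(signal + 30.2143) was computed, the offset being the 25th percentile of Arabidopsis values, and each array was centred on its median, since medians over all 16 arrays differed by up to 1.85 times. Tested probe sets are those brighter than the 40th percentile of the array on 2 or more of the 16 arrays. A model of 7 group means was fitted with limma 3.58.1 in R 4.3.3 (eBayes with an intensity trend), two-sided, with Benjamini-Hochberg adjustment over all 19475 probe sets at 0.05. It was tested on simulated data. For lists, families and markers the brightest probe set stands for a gene. The genes of largest difference and the other symbol-bearing genes were taken by any probe set that passed. Samples were grouped by the labels. Replicates are biological by their labels, with no word on separate plants, so p-values speak only for the spread between arrays, whose small number limits the precision. Replicate numbers were not treated as pairs, since the labels name no shared plants. Deviations of same-numbered arrays had an r of 0.096 across probe sets. With 2 arrays a group this cannot tell whether samples were paired.

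Members, lists, rules and tests were chosen with earlier results of these data known. Named genes are the 15 with the largest difference in each direction among probe sets that pass, name 1 gene and do not overlap, up to 6 passing members of each list, up to 3 of each symbol family, and all tested markers. Other symbol-bearing genes past the test, other list members that did not pass, and 7 families were named after values were seen. Alternatives were other scalings, offsets, filters, samples, array weights, a robust fit, a replicate block, and leaving out each array. The result of 1 of the families is not reported here.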

Additional observations from a re-analysis of the deposited data

Results flagged for a closer look

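For 16 of the 83 genes past the test that were selected as above, the difference from the embryo itself differed between the micropylar and the peripheral endosperm. This was tested as peripheral minus micropylar endosperm in the same limma fit (Benjamini-Hochberg adjusted p below 0.05). Over all features 197 of 19475 probe sets (1.01%) passed, 159 lower and 38 higher in the peripheral endosperm. The embryo arrays cancel in this test, which uses the same micropylar arrays on which the genes were selected. Genes chosen for high micropylar values are therefore favoured to come out lower in the peripheral endosperm. Lower in the peripheral than in the micropylar endosperm, on the log2 scale, were AT5G66670 by -5.10, TET11 by -4.04, AMY1 by -4.02, scpl48 by -3.95, AT2G38870 by -3.88, RALFL18 by -3.81, SBTI1.1 by -3.71, AT4G19460 by -3.51, SAG29 by -3.37, AT3G15720 by -3.29, AT1G04645 by -3.23, B120 by -3.08, AT4G00700 by -3.07, TET4 by -2.91 and scpl20 by -2.90. All of these except AT3G15720, which was higher in the embryo, were lower in the embryo than in the micropylar endosperm. In AT3G15720, AMY1, B120, RALFL18 and AT5G66670 both peripheral arrays were at or under background, so that these differences are no exact sizes. The peripheral endosperm was at least 4.66-fold, 12.3-fold, 5.68-fold, 5.06-fold and 13.9-fold lower in turn. In SBTI1.1 and AT4G19460 1 peripheral array was at or under background. HYH was the 1 gene that was higher in the peripheral endosperm, by 3.6. Groups of 2 or 3 arrays are too small for a check of single outlying arrays.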

How the results depend on the processing

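None of the 83 selected genes past the test turned its direction under any alternative run. Of these, all passed with array weights, with a replicate block and without both chalazal groups, 82 under a stricter filter, 81 with an offset of 100, 74 without a filter, 72 without centring, 68 in a robust fit without trend, 68 with the 4 arrays alone, 65 after quantile normalisation and 34 with an offset of 1. Array weights called 426 probe sets higher and 903 lower in the embryo, and leaving out both chalazal groups 416 and 919. An offset of 1 called 28 and 224, and an offset of 100 called 277 higher. Leaving out 1 array gave 6 to 67 higher and 58 to 213 lower, and kept 13 to 37 of the 83 genes, with a lone array assumed to vary like the other groups. The replicate block called 155 and 483 in place of 123 and 418, and by the labels the samples share only a number. For peripheral against micropylar endosperm, 38 higher and 159 lower became 109 and 321 with array weights, 130 and 338 without both chalazal groups, 9 and 55 with an offset of 1, and 9 and 52 with the arrays of both groups alone, where fewer samples inform the spread. Leaving out 1 array gave 2 to 53 higher and 18 to 169 lower. The causes of the other changes were not tested. Signals near background limit what dim genes can show.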
